A study of Mus musculus with 4 samples.

Results

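The genes described are 10 calcium, membrane and glycan binding genes: the S100 genes S100a4, S100a6, S100a10, S100a11 and S100a13, the annexin genes Anxa2 and Anxa6, the galectin genes Lgals1 and Lgals3, and Capg, which encodes an actin filament capping protein. They were taken by symbol from the platform annotation of Affymetrix mouse 430 2.0 arrays, and 9 of the 10 had at least 1 probe set annotated to that gene alone, 18 probe sets in all, among 18201 genes. The only probe set listing S100a11 names 3 genes (S100a11, S100a11-ps and Gm12854), so its values are given but counted for no gene. The members were named with differences between these same arrays known, chiefly the high S100a4 signal of Foxp3+ cells, so every value is a description and none is a test.

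The study compared 4 populations of CD4+ CD8- mouse thymocytes, 1 array each, from females aged 6 to 8 weeks, enriched on magnetic beads and then sorted by flow cytometry. Mice homozygous for a Foxp3(gfp) allele, which encodes GFP joined to Foxp3, were the source of the GFP- CD25- and GFP- CD25+ populations and of a GFP+ population, named Foxp3-fusion cells below; these mice had been backcrossed from 129/Sv to C57BL/6 for 4 to 6 generations. Foxp3(gfpko/wt) females, carrying 1 wild-type allele and 1 allele that makes GFP without Foxp3, and backcrossed for 2 generations, were the source of the other GFP+ population, named Foxp3-null cells below. Foxp3 is X-linked, so GFP+ cells of these heterozygotes use the knockout allele while other cells of the same animal use the wild-type allele. Mice, genotype, backcross and array cannot be told apart in any comparison with Foxp3-null cells. No difference has a replicate check, an error or a p-value, and precision is limited by their number. In sorted populations, fewer cells with a transcript and less transcript per cell cannot be told apart.

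S100 proteins are small EF-hand proteins that change shape on binding calcium and then bind partners. S100A10 is the exception that no longer needs calcium and pairs with annexin A2 at the plasma membrane. Annexins bind acidic phospholipids when calcium is present. Galectins bind beta-galactoside sugars on glycoproteins, and galectin-1 can be secreted and act on T cells. In T cells S100a4, S100a6, Anxa2, Lgals1 and Capg are known to be higher in antigen-experienced than in naive cells.

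S100a4 and S100a6 lie in the S100 gene cluster of chromosome 3, with S100a5 as the only protein-coding gene between them in RefSeq GRCm38.p6. By brightest probe set, S100a4, S100a6 and Capg were the members 2-fold or more higher in Foxp3-fusion cells than on each other array. For this reason the bases before the annotated starts of S100a4 and S100a6 are shown. So are those before a start of Capg on chromosome 6, which lies inside the annotated span of that gene. Each is the 250 bases that end just before the start in the RefSeq promoter table of GRCm38.p6, which held 7 of the 10 members, written 5′ to 3′ with motif matches in capitals.
S100a4 (chr3:90603520-90603769, + strand): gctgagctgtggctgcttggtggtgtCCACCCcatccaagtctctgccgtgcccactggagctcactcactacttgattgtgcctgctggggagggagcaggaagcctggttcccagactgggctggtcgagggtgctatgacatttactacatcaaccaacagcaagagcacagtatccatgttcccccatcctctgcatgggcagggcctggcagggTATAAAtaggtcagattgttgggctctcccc
S100a6 (chr3:90612644-90612893, + strand): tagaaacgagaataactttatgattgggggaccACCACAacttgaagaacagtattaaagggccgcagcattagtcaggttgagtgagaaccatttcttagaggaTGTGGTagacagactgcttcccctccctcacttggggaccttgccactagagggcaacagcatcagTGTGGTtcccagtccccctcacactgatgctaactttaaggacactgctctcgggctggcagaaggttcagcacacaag
Capg (chr6:72549397-72549646, + strand): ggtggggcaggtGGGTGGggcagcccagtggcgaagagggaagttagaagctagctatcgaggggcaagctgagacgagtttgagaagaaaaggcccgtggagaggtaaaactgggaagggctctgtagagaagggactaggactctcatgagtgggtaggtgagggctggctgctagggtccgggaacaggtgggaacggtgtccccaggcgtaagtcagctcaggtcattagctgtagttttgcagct
Motifs were searched on both strands. In S100a4 the capitals mark a CACCC box, spelled CCACCC, beginning 224 bases before the start, and a TATA box, spelled TATAAA, beginning 31 bases before it. In S100a6 they mark the RUNX core TGTGGT at 145 and 79 bases before the start, and on the other strand, written as ACCACA, at 217 bases before the start. In Capg they mark the CACCC box on the other strand, written as GGGTGG, at 238 bases before the start. Of 32851 promoter windows of the same length, 28.1% hold the CACCC box, 12.4% the TATA box and 14% the RUNX core. The forkhead motif GTAAACA, held by 3.17% of windows, and the STAT motif TTCNNNGAA, held by 7.02%, had no match in the 7 member windows; the GC box GGGCGG is in 32.7% of all windows and in those of S100a11, Anxa2 and Lgals3, and the AP-1 motif TGANTCA is in 6.75% and in those of S100a11 and Anxa2. A match is a run of letters, not a shown binding site, and the 3 windows printed share no one motif.

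As a check on the sort, Foxp3 read 2.76 log2 in GFP- CD25-, 2.88 in GFP- CD25+, 7.27 in Foxp3-null and 8.83 in Foxp3-fusion cells. Both GFP+ arrays thus held signal from the Foxp3 gene. Which bases of the gene the null allele lacks is not stated in the labels, so the Foxp3-null value does not check the loss of Foxp3 protein. Il2ra, which encodes CD25, read 3.62, 7.85, 9.10 and 10.36 log2 in the same order. Signals here are log2 values after quantile normalization of the 4 arrays, and values under 4.43 log2, the floor set from genes of other tissues, were raised to it before differences were taken. Of 11 T cell identity genes on the array, 10 or 11 were above the floor on each array, Cd3d, Cd3e and Cd2 among them. The actin control gap between 3′ and 5′ probe sets was 5.22 log2 on the Foxp3-fusion and 6.99 on the Foxp3-null array. It was 8.39 on the GFP- CD25- and 9.27 on the GFP- CD25+ array. The control probe set AFFX-BioB-3_at read 8.53 log2 on the GFP- CD25-, 9.68 on the GFP- CD25+, 11.11 on the Foxp3-null and 6.86 on the Foxp3-fusion array. The part of RNA quality, or of the amount of labelled RNA, in the differences was not tested.

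S100a4, a calcium-binding protein that binds non-muscle myosin, had a high signal in Foxp3-fusion cells alone. Its signal was 4.59 log2 in GFP- CD25-, 5.07 in GFP- CD25+, 3.98 in Foxp3-null, which is under the floor, and 7.78 in Foxp3-fusion cells. The other 3 populations therefore stood at 5.07 log2 or less, near the floor or under it. S100a4 in Foxp3-fusion cells was 9.15-fold above GFP- CD25- cells, 6.56-fold higher than in GFP- CD25+ cells and at least 10.2-fold higher than in Foxp3-null cells. Over Foxp3-null cells this was the 13th largest of 7908 measured differences upward.

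S100a6, which encodes calcyclin, followed S100a4 closely. It read 5.11 log2 in GFP- CD25-, 4.68 in GFP- CD25+, 4.73 in Foxp3-null and 8.14 in Foxp3-fusion cells. Foxp3-fusion cells were 10.6-fold above Foxp3-null cells, the 12th largest difference of 7908, and 8.15-fold above GFP- CD25- cells. Against GFP- CD25+ cells the difference was 3.45 log2, and the 3 lower populations stood between 4.68 and 5.11 log2. S100a4 and S100a6 each have 1 probe set, so neither has a second reading on the array.

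S100a10, the annexin A2 partner, was highest in Foxp3-fusion cells on each of its 3 probe sets, but by different amounts. The brightest, 1456642_x_at, read 11.88 log2 in GFP- CD25-, 11.75 in GFP- CD25+, 11.57 in Foxp3-null and 12.43 in Foxp3-fusion cells. On probe set 1416762_at the 4 values were 7.22, 7.21, 7.38 and 9.34 log2 in the same order, and on 1439348_at they were 6.53, 5.61, 5.40 and 7.47. Foxp3-fusion cells were thus 1.82-fold above Foxp3-null cells on the brightest probe set and 3.88-fold and 4.19-fold above them on the other 2. Against GFP- CD25- cells the same differences were 1.47-fold, 4.34-fold and 1.92-fold.

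S100a13, which takes part in the release of proteins that lack a signal peptide, differed little between populations. It read 5.83, 6.03, 6.12 and 6.15 log2 in GFP- CD25-, GFP- CD25+, Foxp3-null and Foxp3-fusion cells. Its range of 0.33 log2 was wider than that of 12.2% of 8108 genes above the floor on at least 1 array, against 99% for S100a4 and 99.2% for S100a6. The probe set shared by S100a11, its pseudogene and Gm12854 read 6.96, 6.99, 3.60 and 7.71 log2 in the same order. It was under the floor in Foxp3-null cells alone, at least 9.73-fold below Foxp3-fusion cells and at least 5.76-fold below GFP- CD25- cells, which is a different pattern from S100a4 and S100a6.

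**Figure D1:**
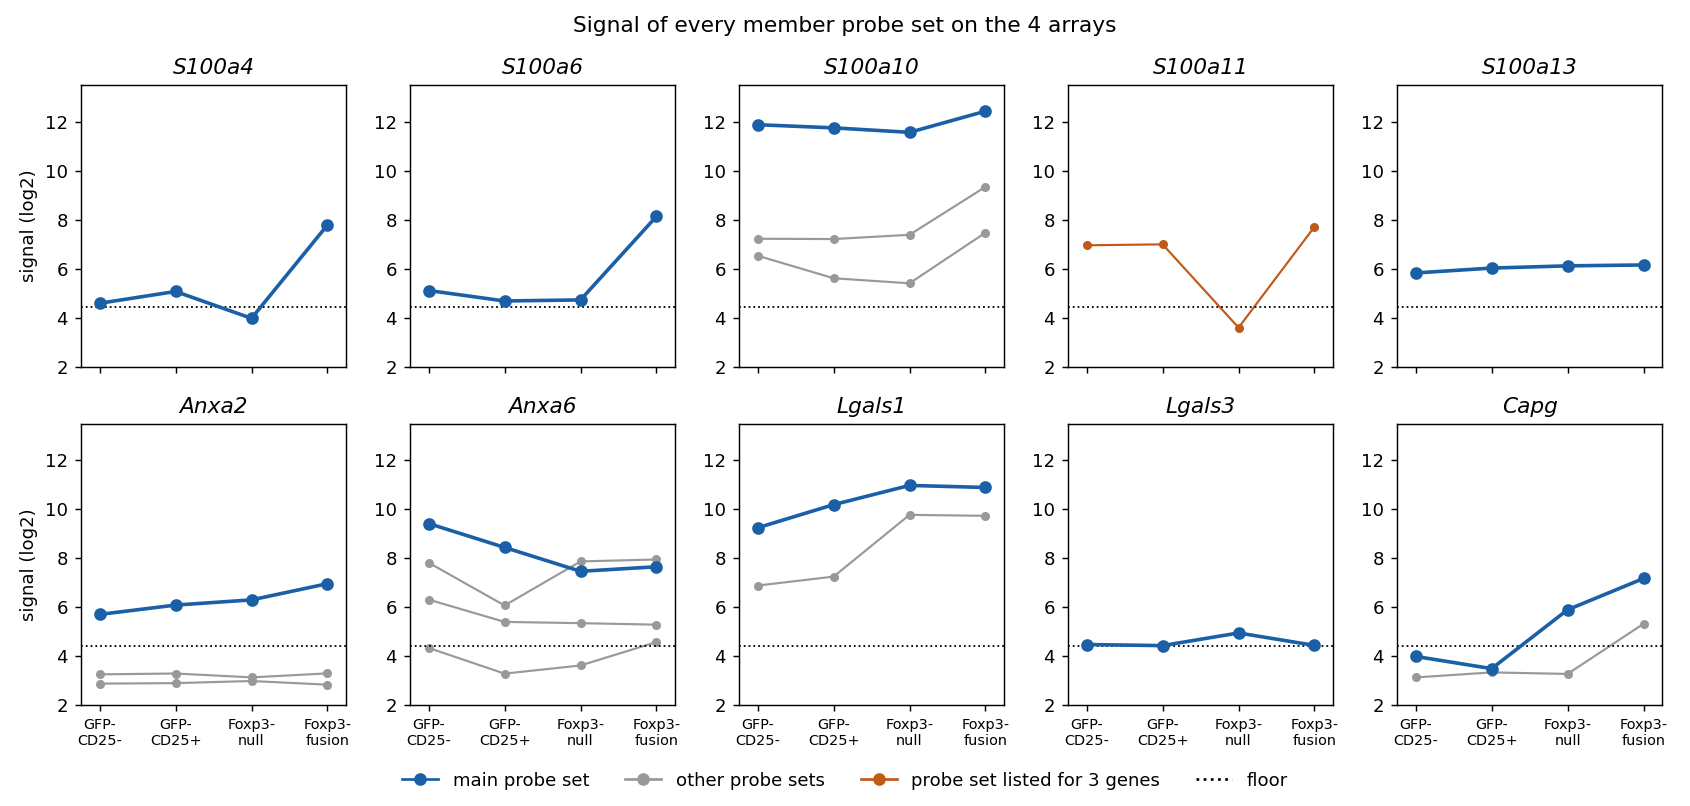
Signal in log2 (y axis) of every probe set of the 10 genes on the 4 arrays (x axis, 1 array per population); blue is the main probe set, grey the others, orange the S100a11 probe set listed for 3 genes, the dotted line is the floor, and lines only join the values of 1 probe set. S100a4 and S100a6 stand at 7.78 and 8.14 log2 in Foxp3-fusion cells and at 5.11 or less elsewhere, whereas Lgals1 is high on both GFP+ arrays.

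The other S100 genes gave no signal. Of 11 further S100 genes listed, 9 had a probe set and all 9 were under the floor on all 4 arrays, including S100a5 between S100a4 and S100a6 and the granulocyte genes S100a8 and S100a9. S100a5 read 2.74, 2.74, 2.70 and 2.75 log2, so within the chromosome 3 cluster high Foxp3-fusion signal was measured for the genes on both sides of it and not for S100a5 itself. S100a13, in the same cluster and above the floor on all 4 arrays, did not share the pattern.

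**Figure D2:**
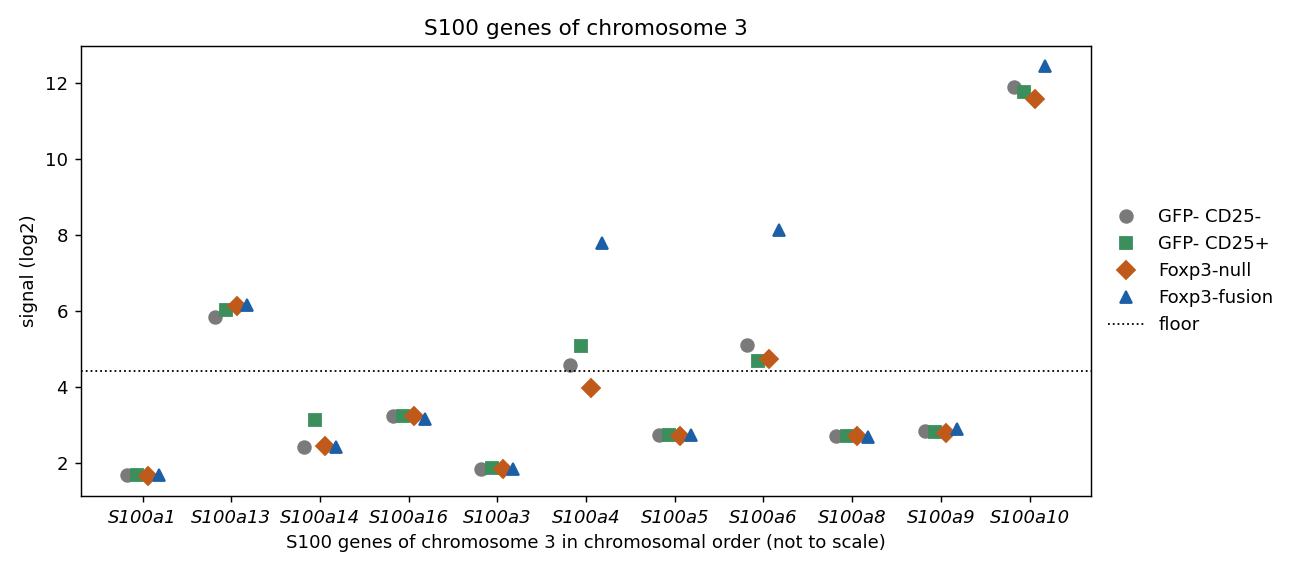
Signal in log2 (y axis) of S100 genes of chromosome 3 that have a probe set, in chromosomal order and not to scale (x axis), with 1 marker per array and the floor dotted; levels may be compared within a gene only. S100a4 and S100a6 are apart in Foxp3-fusion cells (blue triangles), and S100a5 between them is under the floor on every array.

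Anxa2, which encodes annexin A2 and links membranes to actin, was highest in Foxp3-fusion cells and lowest in GFP- CD25- cells. The main probe set read 5.72 log2 in GFP- CD25-, 6.10 in GFP- CD25+, 6.31 in Foxp3-null and 6.97 in Foxp3-fusion cells. Foxp3-fusion cells were 2.38-fold above GFP- CD25- cells, while the difference from Foxp3-null cells was 1.58-fold, or 2.41-fold on the deposited scale. The other 2 Anxa2 probe sets were under the floor on all 4 arrays, so the pattern rests on 1 probe set.

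Anxa6, an annexin with a doubled core that binds membranes of the endocytic path, went the other way on its main probe set, but its probe sets disagreed. The main one, 1429247_at, read 9.43 log2 in GFP- CD25-, 8.45 in GFP- CD25+, 7.48 in Foxp3-null and 7.66 in Foxp3-fusion cells, so both GFP+ populations were low. Foxp3-fusion cells were 3.40-fold and Foxp3-null cells 3.86-fold below GFP- CD25- cells on it. Probe set 1415818_at read 7.83, 6.08, 7.88 and 7.96 log2 in the same order, where GFP- CD25+ cells alone were low, at 3.35-fold below GFP- CD25- cells. Probe set 1442288_at read 6.32, 5.41, 5.36 and 5.30, with GFP- CD25- cells high, and the dimmest one, 1429246_a_at, passed the floor in Foxp3-fusion cells alone at 4.59. The Anxa6 probe sets thus give no single direction between GFP+ and GFP- cells.

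Lgals1, which encodes galectin-1, was higher in both GFP+ populations than in both GFP- populations, by amounts that depended on the probe set. The main probe set read 9.25 log2 in GFP- CD25-, 10.20 in GFP- CD25+, 10.98 in Foxp3-null and 10.90 in Foxp3-fusion cells. The other probe set read 6.89, 7.26, 9.78 and 9.74 log2 in the same order. On it both GFP+ arrays exceeded both GFP- arrays by at least 2.48 log2, with Foxp3-null cells 7.39-fold and Foxp3-fusion cells 7.19-fold above GFP- CD25- cells. On the main probe set the same differences were 3.31-fold and 3.13-fold. Over GFP- CD25+ cells Foxp3-fusion cells were 1.63-fold higher on the main probe set and 5.58-fold on the other, so whether Lgals1 passed 2-fold there depended on the probe set. Foxp3-fusion and Foxp3-null cells differed by -0.08 and -0.04 log2 on the 2 probe sets, and by 0.47 and 0.52 on the deposited scale.

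Lgals3, which encodes galectin-3, stayed near the floor. It read 4.49 log2 in GFP- CD25-, 4.44 in GFP- CD25+, 4.96 in Foxp3-null and 4.45 in Foxp3-fusion cells, so no population was as much as 2-fold from another. Such a dim probe set does not show how the gene itself differs.

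Capg was under the floor in both GFP- populations and above it in both GFP+ populations. It read 4.00 log2 in GFP- CD25-, 3.50 in GFP- CD25+, 5.91 in Foxp3-null and 7.18 in Foxp3-fusion cells. Foxp3-null cells were at least 2.79-fold above either GFP- population, and Foxp3-fusion cells at least 6.75-fold. Between the GFP+ populations Foxp3-fusion cells were 2.42-fold higher, or 3.60-fold on the deposited scale. Its other probe set was above the floor in Foxp3-fusion cells alone, at 5.33 log2. Capg was the member that combined a difference between GFP+ and GFP- cells with a further one between the 2 kinds of GFP+ cell.

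Foxp3-fusion and GFP- CD25- cells, compared here, came from mice of 1 genotype. Of 9 members measured on main probe sets, 5 were 2-fold or more higher in Foxp3-fusion cells (S100a4, S100a6, Capg, Lgals1 and Anxa2). Anxa6 was the 1 member 2-fold or more lower. Over all 7576 measured genes 10.3% were 2-fold or more higher and 5.58% lower. The median difference of the members was 1.25 log2, against -0.05 over all measured genes, and the members were chosen on such differences. The split over all genes was 779 higher and 423 lower, and 1142 (15.2%) and 285 (3.8%) on the deposited scale, where the median over all genes was 0.14 and the same counts of 5 and 1 members were found.

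Foxp3-fusion cells were compared with Foxp3-null cells because the series title names the effect of Foxp3 as its subject. Mice, genotype, backcross and array differ here as well and cannot be told apart from Foxp3 itself. On main probe sets S100a6, S100a4 and Capg were 2-fold or more higher in Foxp3-fusion cells, 3 of 9 measured members, and 0 were lower. Over all member probe sets 5 of 16 measured were 2-fold or more higher, S100a10 probe sets 1416762_at and 1439348_at among them. Over all 7908 genes 9.33% were 2-fold or more higher and 8.93% lower. The members' median was 0.66 log2 against -0.16 for all genes. On the deposited scale 20.2% of genes and 5 members were 2-fold or more higher, S100a10 at 2.59-fold and Anxa2 at 2.41-fold being added, and the median over all genes moved to 0.27. Over all genes the split was 738 higher and 706 lower, or 1597 and 265 (3.35%) with deposited values.

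The comparison of Foxp3-null with GFP- CD25- cells asks about differences that accompany use of the Foxp3 locus without Foxp3 protein. Mice, genotype, backcross and array differ in it too. Lgals1 and Capg were 2-fold or more higher in Foxp3-null cells and Anxa6 lower, that is 2 and 1 of 9 measured members, where 10.7% and 7.74% of all 7773 genes were. S100a4 was under the floor in Foxp3-null cells, at least 1.12-fold below GFP- CD25- cells, and S100a6 was 1.30-fold lower. The members' median of 0.29 log2 lay next to that of all genes, 0.21. Over all genes 835 were higher and 602 lower, or 413 (5.32%) and 936 (12.1%) on the deposited scale, where the same numbers of members were called.

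In GFP- CD25+ over GFP- CD25- cells Capg was under the floor on both arrays and not measured. Of the 8 members measured on their main probe sets 0 were 2-fold or more apart in either direction, against 4.16% higher and 4.71% lower of 7564 genes, shares at which a count of 0 in 8 says little about the members. Over all member probe sets 1 of 13 measured was 2-fold or more lower, the Anxa6 probe set 1415818_at at 3.35-fold. The nearest to 2-fold were Anxa6, 1.97-fold lower in GFP- CD25+ cells, and Lgals1, 1.92-fold higher. On the deposited scale, where over all genes 207 (2.75%) were higher and 561 (7.45%) lower in place of 315 and 356, Anxa6 was 2.35-fold lower. Against GFP- CD25+ cells, S100a6, Capg and S100a4 were 2-fold or more higher in Foxp3-fusion cells on main probe sets, 3 of 9. Over all genes 11.8% were (deposited scale, 5 of 9 members and 21.8% of genes). Of the members 0 were lower, where 8.26% of genes were (deposited, 0 and 3.23%). In Foxp3-null over GFP- CD25+ cells 1 member, Capg, was 2-fold or more higher and 0 lower, where 8.66% and 7.45% of genes were. With deposited values 1 was higher and 1, Anxa6, was lower, where 6.39% and 8.4% of genes were. These comparisons share arrays with those above, so their values are not independent of them.

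**Figure D3:**
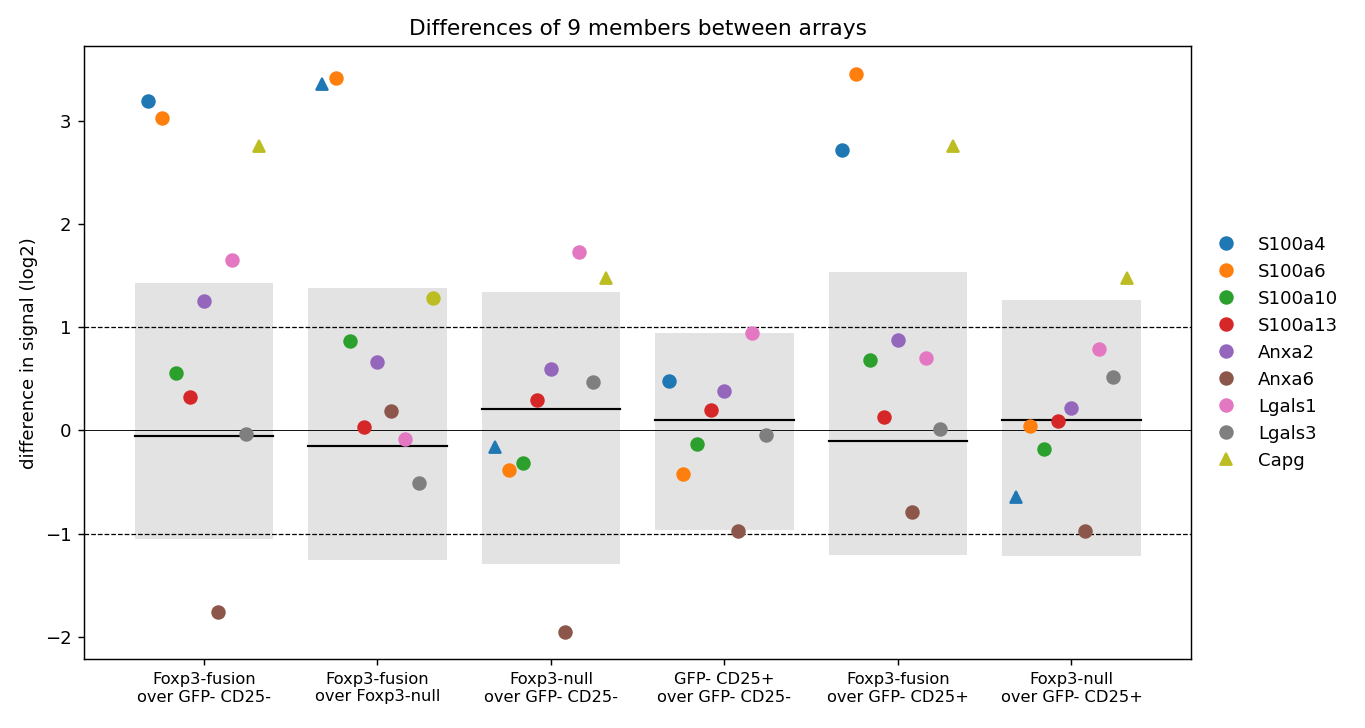
Difference in log2 signal (y axis) of the 9 measured members in the 6 comparisons (x axis); circles are measured values, triangles are bounds because 1 array was at the floor, grey bars span the 5th to 95th percentile of all measured genes, black bars mark their median and dashed lines mark 2-fold. S100a4, S100a6 and Capg lie above the grey bars wherever Foxp3-fusion cells are compared with GFP- cells.

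Across all 4 arrays on main probe sets, S100a4, S100a6 and Capg were 2-fold or more higher in Foxp3-fusion cells than on each other array. So were 3.38% of 8108 genes. With deposited values Anxa2 joined these members, and 7.93% of genes had this pattern. S100a10 probe set 1416762_at, not its main one, had the pattern after normalization, at 3.88-fold or more above each other array. Capg was also the member with both GFP+ arrays 2-fold or more above both GFP- arrays on its main probe set, a pattern of 1.39% of genes (1.28% with deposited values). In Foxp3-null cells 0 of 9 members were 2-fold or more below each other array, where 2.53% of genes were (4.26% with deposited values), although the uncounted S100a11 probe set was. The 8 other genes whose 4 centred values lay nearest to the median centred pattern of the members were St8sia4, Zfp638, Mrpl16, Katna1, Cryz, Slc25a24, Celf2 and Cul1, at distances of 0.05 to 0.12 log2 over 4 arrays. That median pattern runs from -0.55 in GFP- CD25- cells to 0.57 in Foxp3-fusion cells and is much flatter than S100a4 itself.

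**Figure D4:**
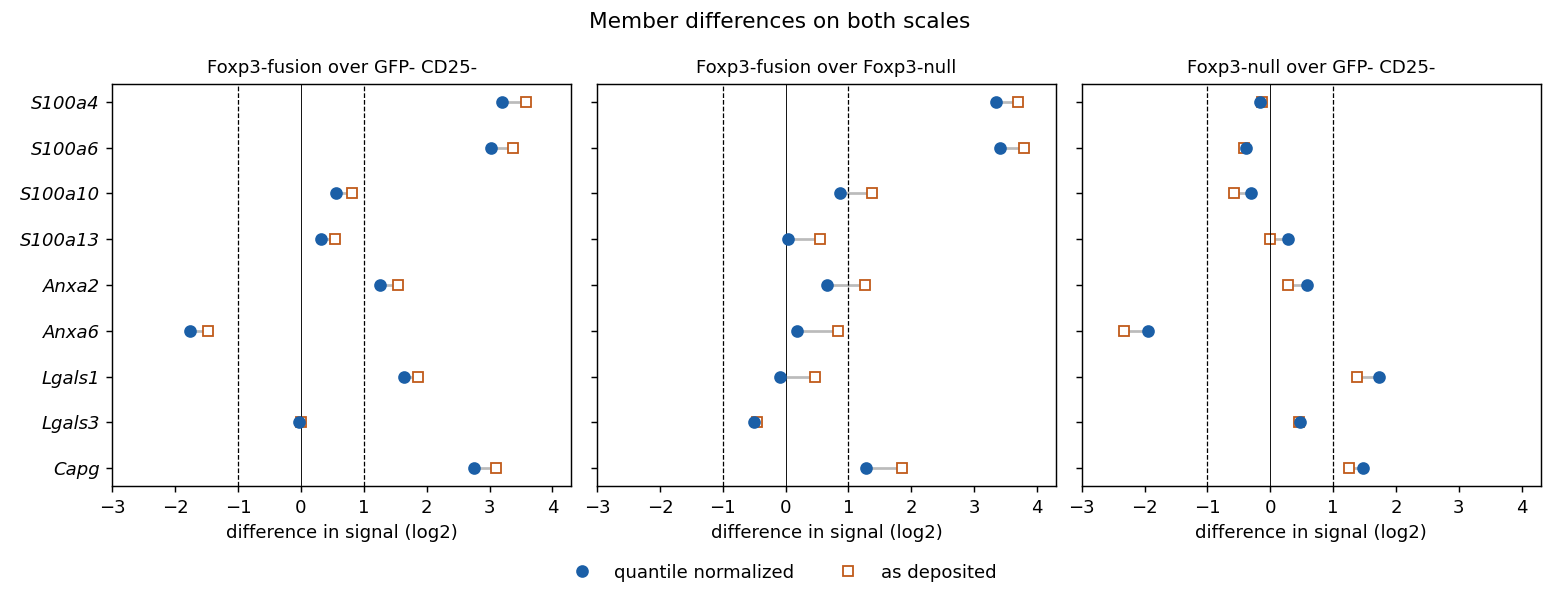
Difference in log2 signal (x axis) of the 9 members (y axis) in 3 comparisons after quantile normalization (filled circles) and as deposited (open squares), with dashed lines at 2-fold; values of S100a4 and Capg with 1 array at the floor are bounds. Every member but Lgals3 and Anxa6 differs more on the deposited scale where Foxp3-fusion and GFP- CD25- cells are compared. On the main probe sets drawn here, S100a10 and Anxa2 pass 2-fold over Foxp3-null cells on the deposited scale alone. S100a10 probe sets 1416762_at and 1439348_at, not drawn, pass it after normalization as well, at 3.88-fold and 4.19-fold.

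Other annexin genes were mostly under the floor, and those above it differed in direction. Of 9 other annexin genes on the array 6 were under the floor on all 4 arrays. Anxa4 read 4.23, 4.18, 4.13 and 5.40 log2 in GFP- CD25-, GFP- CD25+, Foxp3-null and Foxp3-fusion cells. It was thus above the floor in Foxp3-fusion cells alone and at least 1.96-fold above each other array, or 1.15 log2 on the deposited scale. Anxa5, which binds exposed phosphatidylserine, read 7.28, 7.27, 8.55 and 7.19 log2 in the same order, and was 2.56-fold lower in Foxp3-fusion relative to Foxp3-null cells. Of 3 other annexins measured in that comparison it was the 1 that differed by 2-fold or more, with a list median of -0.77 log2, but on the deposited scale 0 of 3 were 2-fold or more lower and 1, Anxa4, was higher. Of 3 other galectin genes measured, Lgalsl was 3.70-fold higher in Foxp3-fusion relative to Foxp3-null cells, at 6.82 against 4.93 log2, and Lgals2 at least 2.10-fold lower, while deposited values gave 2 higher and 0 lower. Lgals8, a galectin with a pair of sugar-binding domains, ran from 8.17 to 8.77 log2 over the 4 arrays. In Foxp3-fusion over Foxp3-null cells 9.33% of all genes were 2-fold or more higher and 8.93% lower. With deposited values these shares were 20.2% and 3.35%.

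Capg belongs to the gelsolin family, and Gsn, the gelsolin gene, was lowest in the population where Capg was highest. Gsn read 8.90 log2 in GFP- CD25-, 7.35 in GFP- CD25+, 7.89 in Foxp3-null and 6.30 in Foxp3-fusion cells, so it was 6.06-fold lower in Foxp3-fusion than in GFP- CD25- cells where Capg was at least 6.75-fold higher. Gsn was the 1 of 6 measured gelsolin family and capping protein genes 2-fold or more apart in that comparison, with 0 higher. The list median was -0.06 log2, and 5.58% of all genes were lower and 10.3% higher. Deposited values gave 1 higher and 1 lower, where 15.2% and 3.8% of all genes were.

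Among known binding partners of the members, Ahnak stood out. Ahnak, a giant scaffold protein bound by annexin A2 and S100A10, read 5.58 log2 in GFP- CD25-, 7.57 in GFP- CD25+, 8.71 in Foxp3-null and 9.36 in Foxp3-fusion cells. Its signal was 13.7-fold higher in Foxp3-fusion and 8.73-fold higher in Foxp3-null than in GFP- CD25- cells, and already 3.97-fold higher in GFP- CD25+ cells. Mgat5, which builds branched glycans that galectins bind, stood 2.51-fold higher in Foxp3-fusion than in GFP- CD25- cells. These were the 2 of 12 measured partners 2-fold or more higher there, with 0 lower and a median of -0.05 log2. Of all genes 10.3% were higher and 5.58% lower. Over Foxp3-null cells 0 of 11 partners were 2-fold apart after normalization, where 9.33% of all genes were higher and 8.93% lower. With deposited values 3 partners were higher, against 20.2% of all genes. Myh9, the non-muscle myosin bound by S100A4, ran from 11.34 to 12.30 log2 and was lowest in Foxp3-fusion cells.

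Genes of effector and memory T cells differed in both directions. In Foxp3-fusion over GFP- CD25- cells 9 of 21 were 2-fold or more higher and 3 lower, with a median of 0.83 log2 against -0.05 over all genes. Of all measured genes 10.3% were higher and 5.58% lower there. Deposited values gave 11 higher and 3 lower in the list. Cd48 was 9.20-fold higher, Itgb1, an integrin chain, 7.35-fold and Ifngr1 6.24-fold, whereas Id2 was 17.7-fold lower. Over Foxp3-null cells 8 of 20 were 2-fold or more higher and 2 lower, with a median of 0.09 log2, where 9.33% and 8.93% of all genes were. Ccl5, Klrg1 and Prdm1 among the 8 were bounds. Deposited values gave 9 higher and 1 lower, with a median of 0.67. Itgb1 read 4.85, 4.37, 5.04 and 7.73 log2 in the order of arrays used above, which like S100a4 is high in Foxp3-fusion cells alone. Cd44 was 4.92-fold higher in Foxp3-fusion relative to Foxp3-null cells, while Ccr2 was 3.30-fold lower. The list shares none of its genes with the members.

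Most actin cytoskeleton genes lay within 2-fold between arrays. Of 19 measured in Foxp3-fusion over GFP- CD25- cells 1 was 2-fold or more higher, Arpc5 at 2.43-fold, and 1 lower, Tmsb10 at 2.40-fold. The list median was -0.02 log2, and 10.3% of all genes were higher and 5.58% lower there. Over Foxp3-null cells 2 actin genes were higher, Vasp at 6.30-fold and Arpc5 at 2.90-fold, and 0 lower. Of all genes 9.33% were higher and 8.93% lower. With deposited values 5 actin genes were higher, against 20.2% of all genes. Against GFP- CD25+ cells 4 of 19 were higher in Foxp3-fusion cells and 0 lower, where 11.8% and 8.26% of all genes were. The list median was 0.52 log2, and Lcp1, an actin bundling protein, led at 2.71-fold. Deposited values gave 8 higher, against 21.8% of all genes. Among other EF-hand genes, Efhd2 was 5.94-fold higher in Foxp3-fusion relative to Foxp3-null cells, and read 7.01 log2 in the latter against 8.85 to 9.58 elsewhere, a low value on the same array as that of the S100a11 probe set.

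**Figure D5:**
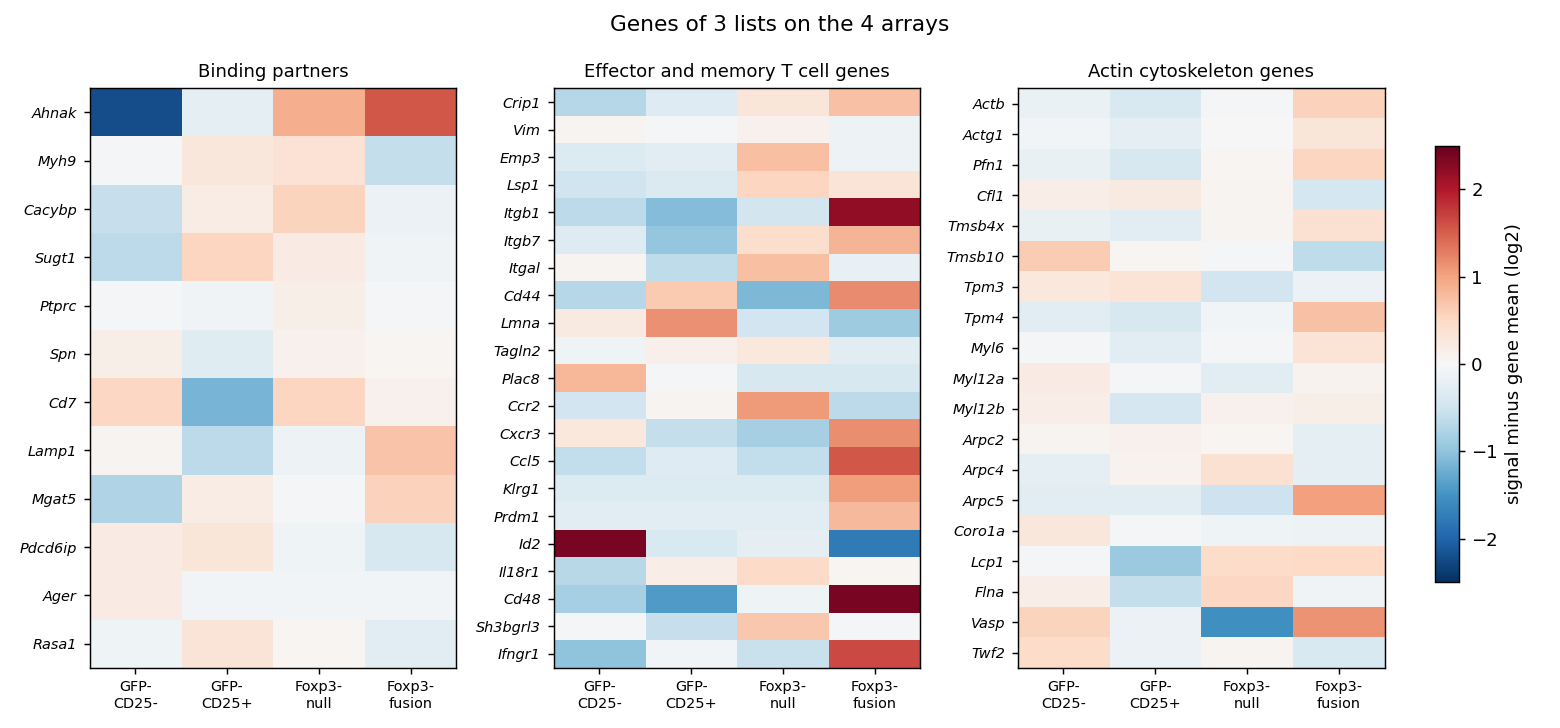
Signal minus the gene's mean over the 4 arrays, in log2 (colour), of genes above the floor on at least 1 array from 3 lists (rows) in the 4 populations (columns). Ahnak runs from low in GFP- CD25- to high in Foxp3-fusion cells, and Itgb1, Cd48 and Ifngr1 are high in Foxp3-fusion cells.

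Genes of thymocyte maturity also differed between the populations. Of 8 measured genes of immature thymocytes 5 were 2-fold or more lower in Foxp3-fusion than in GFP- CD25- cells and 0 higher. The list median was -1.50 log2, and 5.58% of all genes were lower and 10.3% higher there. The list includes Cd8a, and the cells were sorted as CD8-. Over Foxp3-null cells 2 of 7 immature genes were lower and 0 higher, where 8.93% and 9.33% of all genes were. The list median was -0.85, or -0.25 on the deposited scale. On that scale 0 were lower (3.35% of all genes) and 1 higher (20.2%). In Foxp3-null over GFP- CD25- cells 4 of 8 immature genes were lower and 0 higher, where 7.74% and 10.7% of all genes were. The list median was -1.02. Of 11 genes of mature single-positive thymocytes 5 were 2-fold or more higher in Foxp3-fusion than in GFP- CD25- cells and 2 lower. Their median was 0.33, where 10.3% of all genes were higher and 5.58% lower. Over Foxp3-null cells 2 mature genes were higher and 0 lower, where 9.33% and 8.93% of all genes were. In GFP- CD25+ over GFP- CD25- cells 5 of the 11 were lower and 0 higher, where 4.71% and 4.16% of all genes were. Of 9 immature genes 2 were higher, Dntt at 8.27-fold and Cd24a at 2.82-fold. As many were lower, Ccr9 at 4.27-fold and Satb1 at 2.52-fold. Rag1 was above the floor in GFP- CD25+ cells alone, at 5.22 log2. The part of maturity in the differences of S100a4 and S100a6 was not tested.

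Several members are strongly expressed by macrophages, dendritic cells and granulocytes, so markers of these cells were read on each array. Of 15 dendritic cell and macrophage markers 2, 3, 4 and 2 were above the floor in GFP- CD25-, GFP- CD25+, Foxp3-null and Foxp3-fusion cells, with summed linear signals of 313, 337, 377 and 216. H2-Aa read 6.68, 6.60, 6.49 and 5.16 log2 in the same order, and Mpeg1 6.60, 6.84, 6.99 and 6.05. Csf1r was above the floor in GFP- CD25+ cells at 4.57 and in Foxp3-null cells at 5.50. Adgre1 was above it in Foxp3-null cells alone, at 5.21. Itgax, Itgam, Lyz2, Cd68, Fcer1g, Tyrobp, Cd14, Spi1 and Cd74 were under the floor on all 4 arrays, and so were all 9 granulocyte markers on the array. Of 9 NK and NKT cell markers 4, 1, 2 and 2 were above the floor, with sums of 261, 140, 194 and 152. Zbtb16 and Klrd1 were above it in GFP- CD25- cells alone, at 6.39 and 6.32 log2. Eomes was above it on all 4 arrays, and Nkg7 on all but the GFP- CD25+ array. Of 8 B cell markers 2, 2, 2 and 1 were, with sums of 804, 558, 118 and 1799, and Ighm read 9.54, 8.93, 4.83 and 10.76 log2 in the same order. Ms4a1 was at 5.63 log2 on the Foxp3-null array and under the floor on the Foxp3-fusion array. Cd79a, Cd79b, Cd22, Pax5, Ebf1 and Blnk were under the floor on all 4 arrays. Of 5 gamma delta T cell markers listed only 2, Sox13 and Blk, were on the array, and of 7 erythroid markers only 3. These were under the floor on every array, and the listed markers without a probe set could not be read. Of 5 thymic epithelium markers 1 or 2 were above the floor, and of 9 endothelial and fibroblast markers 0 or 1. Of the 2 CD8 genes, used in the sort, Cd8a was between 4.42 and 4.78 log2.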

How the data were processed

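RNA of sorted thymocytes was amplified in 2 rounds, biotin-labelled and hybridised to Affymetrix mouse 430 2.0 arrays, per the labels' protocols. The authors deposited 1 value per probe set and array; the scale was taken as log2 from the range of values, and background correction, summarisation and normalization are not given in the sources used here. Deposited 90th percentiles ran from 7.54 to 8.17 log2, so the 4 arrays were quantile normalized, which assumes equal signal distributions; deposited values were an alternative. Groups came from the titles, and the description of the Foxp3-null sample repeats that of the other mice.

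Of 45101 probe sets, 64 controls were left out, 34957 had 1 gene, 920 several and 9160 none listed. Each gene was read from its brightest probe set by mean deposited value. The floor came from 52 probe sets of genes of other tissues, as the largest of the 4 arrays' 90th percentiles over them. A gene was measured in a comparison where at least 1 array was above it, and a bound stands where the other array was not. A gene was counted at 2-fold or more. With 1 array per group no test was made. Members and lists were chosen with earlier results of these data known. The text names all members, up to 4 genes per list, comparison and direction and the 8 nearest patterns. Further genes (Myh9, Anxa4, Lgals8, Ighm, S100a5, Il2ra, Rag1 and single markers) were named after their values were seen. Protein sequences were not used here. Scripts used Python 3.11.15 and numpy 2.4.6 and were tested on simulated data.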

Additional observations from a re-analysis of the deposited data

How the results depend on the processing

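For each of the 6 comparisons, the number of members at least 2-fold higher, the number lower and their median difference were recomputed under 9 alternatives and 2 more chosen after the data were seen, 186 values in all. Of these, 152 stayed within 1.5-fold of the reported one and 34 did not. A change of sign from a called value occurred in 0, but counts cannot change sign and small medians were not called. Over the settings the median in Foxp3-null over GFP- CD25- cells ran from -0.01 to 0.52 log2. That in GFP- CD25+ over GFP- CD25- cells ran from -0.04 to 0.20 log2, so the sign of these medians depended on the processing. With deposited values, 5 members were higher in Foxp3-fusion over Foxp3-null cells with a median of 1.27 log2, 5 were higher in Foxp3-fusion over GFP- CD25+ cells, and 1 was lower in GFP- CD25+ over GFP- CD25- cells as well as in Foxp3-null over GFP- CD25+. Centring the arrays gave 1 higher in GFP- CD25+ over GFP- CD25- cells. Without a floor, or with it at each array median, Foxp3-null over GFP- CD25+ had 1 lower. A floor 1 log2 higher left 1 higher in Foxp3-null over GFP- CD25- and 0 in Foxp3-null over GFP- CD25+ cells.

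The choice of probe set moved several values. With the median over a gene's probe sets, 0 were lower in Foxp3-fusion and in Foxp3-null over GFP- CD25- cells, 1 was higher in the latter, 1 was lower in GFP- CD25+ over GFP- CD25- cells, 5 were higher in Foxp3-fusion over GFP- CD25+ cells (median 1.71), and the median in Foxp3-fusion over GFP- CD25- cells was 1.97. Reading S100a10 and Anxa6 from their second-brightest probe sets gave 0 lower in Foxp3-fusion and in Foxp3-null over GFP- CD25- cells, 1 lower in GFP- CD25+ over GFP- CD25- cells, 5 higher in Foxp3-fusion over GFP- CD25+ cells (median 1.88) and 2 higher in Foxp3-null over GFP- CD25+ cells. It turned the Anxa6 difference to 0.13 log2 in Foxp3-fusion and 0.052 in Foxp3-null over GFP- CD25- cells; the cause was not tested. Counting the S100a11 probe set gave 2 lower in Foxp3-null over GFP- CD25-, and 1 in Foxp3-null over GFP- CD25+ cells. At 3-fold 1 was higher in Foxp3-null over GFP- CD25- and 0 in Foxp3-null over GFP- CD25+ cells. At 1.5-fold 5 were higher in Foxp3-fusion over Foxp3-null cells, 1 higher and 1 lower in GFP- CD25+ over GFP- CD25- cells, 6 higher and 1 lower in Foxp3-fusion over GFP- CD25+ cells, and in Foxp3-null over GFP- CD25+ cells 2 higher and 2 lower. No paired analysis was possible because each group has 1 array.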
